A study of Mus musculus with 12 samples.

Results

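Cardiac sarcomere genes and cardiac transcription factor genes were followed in mouse embryonic stem (ES) cells that lack the telomerase RNA gene Terc and in wild-type (WT) cells, before and during differentiation. The group holds 10 genes of the 18193 that have a probe set of their own on the array. They are the thin filament genes Actc1, Tnnt2 and Tnnc1, the thick filament genes Myh6, Myh7, Myl4 and Myl7, and the factor genes Nkx2-5, Tbx5 and Mef2c. A probe set, the array's unit of measurement for one transcript, was taken as a member where its annotation gives exactly 1 of these symbols. This rule gave 19 probe sets of the 45037 that are not manufacturer controls, 11 for the 7 sarcomere genes and 8 for the 3 factors, and the rule used no measured value. Mef2c had 5 probe sets, Tnnt2 had 3, Myl4, Myh6 and Tbx5 had 2 each and the other 5 genes had 1 each. Another 2 probe sets carry both the Myh7 and the Myh6 symbol and stay outside the rule.

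The study asked how short telomeres affect the differentiation of ES cells, and its 12 Affymetrix mouse expression arrays fall into 6 groups of 2. Day 0 holds undifferentiated Terc-/- (KO) ES cells of the lines F35 and A49 at passage 11, from late generation (G3/4) knockouts, and WT ES cells of the lines N12 and N33 at passage 12. Day 8 and day 15 hold KO cells and WT cells after 8 and 15 days of differentiation, and all cells have the C57BL/6 background. Differentiation began in hanging drops without leukaemia inhibitory factor, where the cells form embryoid bodies, which were then plated. The labels name no ES cell line for the day 8 and day 15 arrays, and the study's text describes its profiles as G4 knockout against WT cells in duplicate, so line and replicate cannot be told apart there, and each day 0 line is a single derivation. Terc itself was not analysed here, so the genotype rests on the labels. The p-values rest on the spread between the 2 labelled biological replicates of a group, pooled over the 6 groups. Those of day 8 and day 15 therefore also use the gaps between the day 0 lines.

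As background, the sarcomere is the contractile unit of striated muscle. Actin filaments, with the troponin complex as their calcium switch, slide along filaments of myosin heavy chains that carry light chains. Heart muscle uses its own forms of many of these proteins. Nkx2-5, Tbx5 and Mef2c are DNA-binding factors of the early heart field, and together with Gata4 they are known to drive cardiac genes in the mouse embryo. Embryoid bodies are known to form patches of beating cardiomyocytes, and the amount can vary from culture to culture.

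Actc1 and Myl7 both carry the letters of a CArG box, the binding site of serum response factor, close before their start, while Myh6 carries none. TATAAA, the letters of a TATA box, occurs in both Actc1 and Myh6, but not before the start used here. The promoter windows of Actc1, Myl7 and Myh6 are given because these are 3 of the sarcomere genes whose levels varied together between arrays. The windows run from 250 bases before to 50 bases after the start in RefSeq annotation of build GRCm38.p6, on the minus strand for all 3 genes, and motif matches are in capitals.
Actc1, chr2:114052826-114053125: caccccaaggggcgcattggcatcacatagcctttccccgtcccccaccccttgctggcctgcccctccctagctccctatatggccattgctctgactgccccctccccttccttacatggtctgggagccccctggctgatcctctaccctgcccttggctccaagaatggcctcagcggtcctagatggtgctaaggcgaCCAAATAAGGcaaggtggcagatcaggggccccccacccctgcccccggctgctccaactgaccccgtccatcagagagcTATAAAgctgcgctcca
Myl7, chr11:5898733-5899032: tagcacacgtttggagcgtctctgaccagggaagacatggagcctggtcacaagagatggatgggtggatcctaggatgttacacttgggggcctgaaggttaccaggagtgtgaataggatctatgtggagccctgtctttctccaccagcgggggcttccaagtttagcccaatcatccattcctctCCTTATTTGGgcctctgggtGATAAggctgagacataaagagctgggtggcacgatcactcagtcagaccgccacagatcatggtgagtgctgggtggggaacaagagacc
Myh6, chr14:54966558-54966857: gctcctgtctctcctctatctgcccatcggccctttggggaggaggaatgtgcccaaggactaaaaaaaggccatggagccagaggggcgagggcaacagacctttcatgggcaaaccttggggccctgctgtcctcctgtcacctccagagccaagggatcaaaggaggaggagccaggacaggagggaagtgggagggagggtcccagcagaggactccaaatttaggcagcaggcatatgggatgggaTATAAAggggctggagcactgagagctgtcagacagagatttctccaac
The capitals mark the CArG box of Actc1 from -47 to -38 and of Myl7 from -61 to -52, counted from the start. They also mark GATAA in Myl7 from -41 to -37, and TATAAA in Actc1 from 33 to 38 and in Myh6 from 1 to 6. The promoter table held 13 windows for 9 of the 10 genes, and the motifs were searched on both strands without regard to overlap. The CArG box occurred in 1.63% of all 32851 windows of this length and in 2 of the 13. GATAA, the letters of a GATA factor site, occurred in 25.4% of all windows and in 3 of the 13, in Myl7, Tnnt2 and Mef2c. The Nkx2-5 site TNAAGTG occurred in 11.5% of all windows and only in Myh7 here, and the T-box site AGGTGT in 13.7% and only in Mef2c here. TATAAA occurred in 13.6% of all windows and in Actc1, Myh6 and Mef2c. The letters of a MEF2 site occurred in 3.19% of all windows and in 0 of the 13. A match describes letters, not binding.

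The values are linear intensities, and the median array value lay between 50.6 and 53.1 at days 8 and 15 and between 114 and 117 at day 0. The lowest value of each day 0 array was 1.00, against 3.45 to 3.83 on the later arrays, so the day 0 values appeared to be on another scale, which neither labels nor methods state. No test therefore sets day 0 against a later day. The change with differentiation is given as each probe set's percentile among all probe sets of its own array. Dim probe sets shifted in percentile as well. The skeletal muscle factor Myod1 lay between 40.4 and 44.4 at day 0 and between 21.1 and 29.8 later. Myog, another such factor, lay between 44.9 and 48.0 at day 0 and between 33.7 and 42.8 later. For shifts of this size, differentiation and the other scale cannot be told apart. In RNA from whole cultures, fewer cells of a type and less RNA per cell cannot be told apart.

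Most sarcomere genes held low to middle positions in ES cells and high positions after differentiation, in both genotypes. Actc1, which encodes cardiac actin, lay between percentiles 23.4 and 28.8 on the day 0 arrays and between 80.7 and 95.9 on the later 8. Tnnt2, the cardiac troponin T that anchors the complex to the thin filament, lay between 14.5 and 21.0 at day 0 and between 69.9 and 91.7 later, on its brightest probe set. Its probe set 1418726_a_at lay between 2.11 and 3.81 at day 0 and between 66.1 and 90.4 later. On these 3 probe sets the ranges of day 0 and of the later arrays were far apart. The third Tnnt2 probe set, 1440424_at, stayed dim, between 12.7 and 25.3 at day 0 and between 18.2 and 31.9 later, so its ranges overlapped.

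Tnnc1, the calcium-binding troponin C of cardiac and slow skeletal muscle, lay between percentiles 45.3 and 55.1 at day 0 and between 91.7 and 97.0 later. Myl7, the atrial regulatory light chain, lay between 49 and 53.4 at day 0 and between 79.0 and 96.2 later. Myh7, the slow or beta myosin heavy chain, lay between 68.5 and 74.5 at day 0 and between 87.4 and 95.7 later. Myl4, the atrial and embryonic essential light chain, shifted less, with 70.0 to 77.9 at day 0 and 79.3 to 92.2 later on its brightest probe set, while its probe set 1457126_at ran the other way, with 61.4 to 64.04 at day 0 and 50.5 to 57.6 later. Myh6, the alpha heavy chain of adult mouse heart, lay between 60.4 and 63.9 at day 0 and between 52.0 and 86.8 later, so its ranges overlapped.

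On their brightest probe sets the factor genes stayed nearer the middle of their arrays. Nkx2-5, a homeodomain factor of heart progenitors, lay between percentiles 37.9 and 41.8 at day 0 and between 52.3 and 61.8 later. Mef2c, a MADS-box factor of muscle and also of vessels, nerve and blood cells, lay between 49 and 56.9 at day 0 and between 53.1 and 84.4 later on its brightest probe set. Its other probe sets differed. Those of 1421027_a_at ran from 10.2 to 13.0 at day 0 and from 53.6 to 87.9 later. Those of 1451506_at ran from 24.8 to 30.9 and from 50.6 to 75.0, so both shifted without overlap. Values of 1451507_at were 14.9 to 20.7 and 22.4 to 43.4. On 1421028_a_at the ranges overlapped, with 39.5 to 41.4 and 30.6 to 48.5. Tbx5, a T-box factor of the forming heart and forelimb, lay between 58.4 and 61.6 at day 0 and between 43.6 and 59.6 later on 1425695_at, and between 31.2 and 37.6 at day 0 and between 22.5 and 33.8 later on 1425694_at. Of the 19 probe sets, 13 lay above the median of their array on all 8 later arrays. Another 5 lay under it on all 8, and the Tbx5 probe set 1425695_at lay under it on 7. The Myh6 probe set 1417729_at read 4.28 to 5.41 on the later arrays and lay under the lower quartile of all 12 arrays, so Myh6 is read from 1448826_at.

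**Figure D1:**
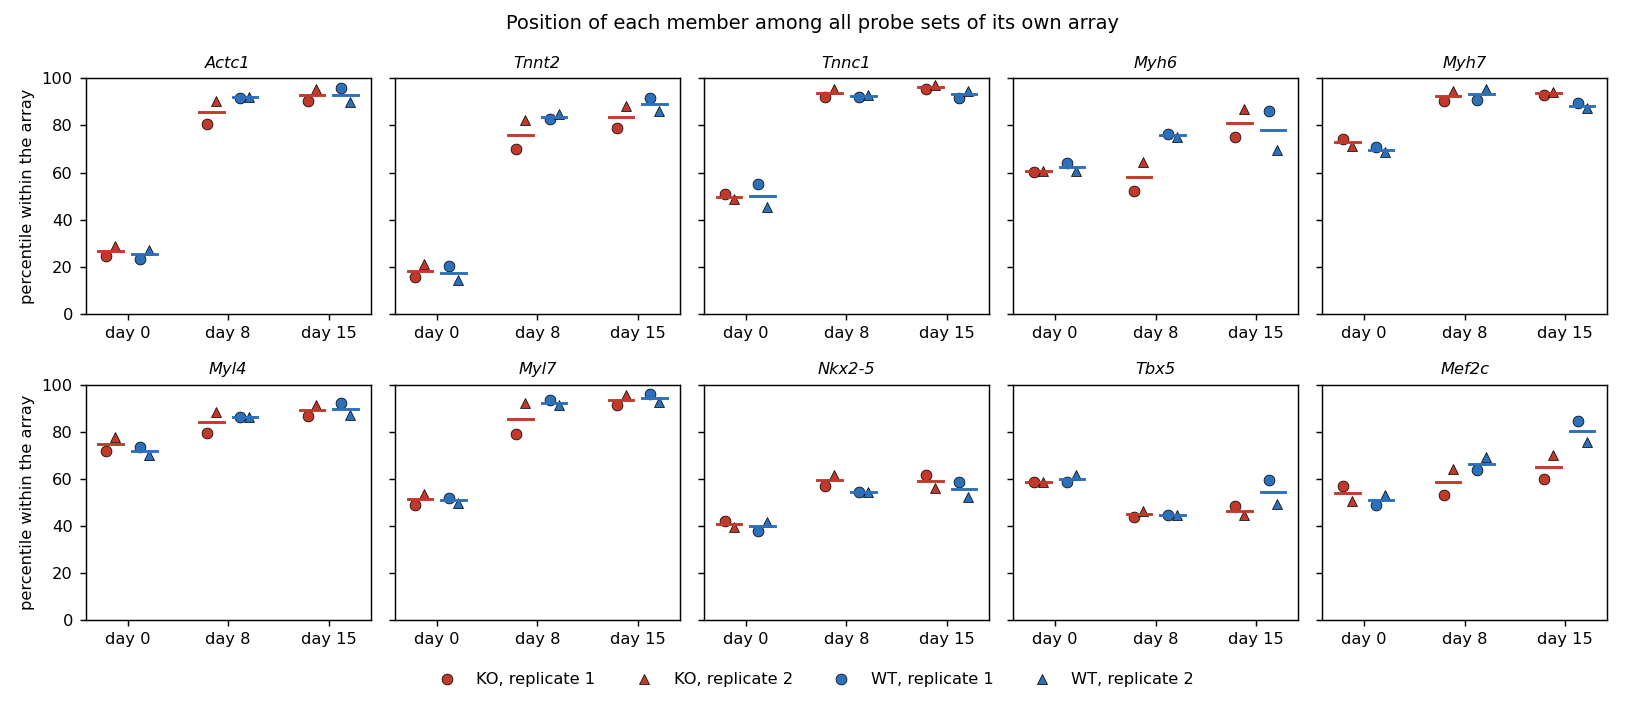
Percentile of the brightest probe set of each of the 10 genes within its own array (0 to 100) at days 0, 8 and 15, with KO left of WT, circles for replicate 1, triangles for replicate 2 and lines for group means (n = 2). Actc1 moved to between 80.7 and 95.9 on the later arrays in both genotypes, while Nkx2-5 and Tbx5 stayed at 61.8 or less on all 12.

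At day 0 the genotypes were close. Actc1 read 55.3 and 62.99 on the KO arrays, against 51.6 and 58.98 on the WT arrays, and Myl7 read 113 and 130.3 on the KO arrays, against 120.4 and 113 on the WT arrays. In both genes the arrays of the 2 genotypes overlapped. limma called 0 of the 19 probe sets, where it called 0.0488% of all probe sets, and 0 had an unadjusted p under 0.05, against 8.59% of all. KO and WT arrays did not overlap in 5 of the 19, against 47.9% of all probe sets. The median log2 difference, KO minus WT, was 0.08 over the 19 and 0.04 over all.

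At day 8 the thin filament genes Actc1 and Tnnt2 read lower on both KO arrays than on both WT arrays, without passing the test. Actc1 read 291 and 680.1 on the KO arrays, against 825 and 876 on the WT arrays. The KO array of replicate 1 was the lowest of the 4, and the difference was -0.94 (95% interval -2.07 to 0.20, limma adjusted p = 0.457) on the log2 scale. Tnnt2 read 141 and 326 on the KO arrays, against 351 and 421 on the WT arrays. Its difference of -0.84 (95% interval -1.85 to 0.17, limma adjusted p = 0.452) had the same shape, with the KO array of replicate 1 lowest and no overlap. The Tnnt2 probe set 1418726_a_at did not overlap either, with a difference of -0.95 (95% interval -1.92 to 0.03, limma adjusted p = 0.376). Tnnc1 read 833 and 1439 on the KO arrays, against 852 and 984 on the WT arrays. Here the arrays overlapped, and the difference was 0.26 (95% interval -0.41 to 0.93, limma adjusted p = 0.766).

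Among the thick filament genes at day 8, Myh6 had the largest KO to WT difference. It read 56.1 and 102 on the KO arrays, against 228 and 209 on the WT arrays. Both KO arrays lay far under both WT arrays, and the difference of -1.53 (95% interval -2.75 to -0.31, limma adjusted p = 0.244) had an unadjusted p of 0.0194, the only one of the 19 under 0.05. Myl7 read 259 and 818 on the KO arrays, against 1035 and 781 on the WT arrays, a difference of -0.97 (95% interval -2.17 to 0.24, limma adjusted p = 0.467). The KO array of replicate 1 stood apart from the other 3, which overlapped. Myl4 read 263 and 548 on the KO arrays, against 459 and 479 on the WT arrays, and Myh7 read 651 and 1225 on the KO arrays, against 726 and 1564 on the WT arrays. The arrays overlapped in both genes, and the differences were -0.30 (95% interval -1.15 to 0.55, limma adjusted p = 0.783) for Myl4 and -0.26 (95% interval -1.08 to 0.57, limma adjusted p = 0.816) for Myh7. Without the KO array of replicate 1, the Myl4 difference turned to 0.23 (adjusted p = 0.913).

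At day 15 the KO and WT arrays of Actc1, Myl4, Myl7, Myh6 and Tnnt2 overlapped. Actc1 read 643 and 1361 on the KO arrays, against 1537 and 637 on the WT arrays. Each genotype had 1 high and 1 low array, and the difference was -0.08 (95% interval -1.22 to 1.06, limma adjusted p = 0.948). Tnnt2 read 244 and 533 on the KO arrays, against 762 and 450.2 on the WT arrays, a difference of -0.70 (95% interval -1.71 to 0.31, limma adjusted p = 0.379). On the Tnnt2 probe set 1418726_a_at the arrays overlapped as well, with a difference of -0.80 (95% interval -1.77 to 0.17, limma adjusted p = 0.286). Myl7 read 690.4 and 1476 on the KO arrays, against 1626 and 895 on the WT arrays, a difference of -0.26 (95% interval -1.46 to 0.95, limma adjusted p = 0.824). In both genes the WT array of replicate 1 was the highest of the 4 and the KO array of replicate 1 the lowest. Myl4 read 441 and 739.7 on the KO arrays, against 819 and 494 on the WT arrays, a difference of -0.16 (95% interval -1.01 to 0.69, limma adjusted p = 0.855). Myh6 read 191 and 469 on the KO arrays, against 441 and 147 on the WT arrays, a difference of 0.23 (95% interval -0.98 to 1.45, limma adjusted p = 0.844). For Actc1, Myl4 and Myl7 the sign turned when replicate 1 of either genotype was left out, and for Myh6 when replicate 2 of either genotype was left out.

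In Myh7 and Tnnc1 both KO arrays of day 15 read higher than both WT arrays, without passing the test. Myh7 read 868 and 1143 on the KO arrays, against 599.6 and 504 on the WT arrays, a difference of 0.86 (95% interval 0.04 to 1.68, limma adjusted p = 0.172). Tnnc1 read 1428 and 2088 on the KO arrays, against 760.3 and 1229 on the WT arrays, a difference of 0.84 (95% interval 0.16 to 1.51, limma adjusted p = 0.105). The unadjusted p was 0.0425 for Myh7 and 0.0197 for Tnnc1, and neither passed after adjustment over all probe sets. Myh7 passed with only the 4 arrays of day 15 in the fit, and Tnnc1 passed without the WT array of replicate 2. The probe set 1448554_s_at, shared by Myh7 and Myh6, read 379 and 663 on the KO arrays, against 446 and 236 on the WT arrays, so its groups overlapped. The 2 heavy chain genes are close copies of each other, and their probe sets may take signal from both.

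**Figure D2:**
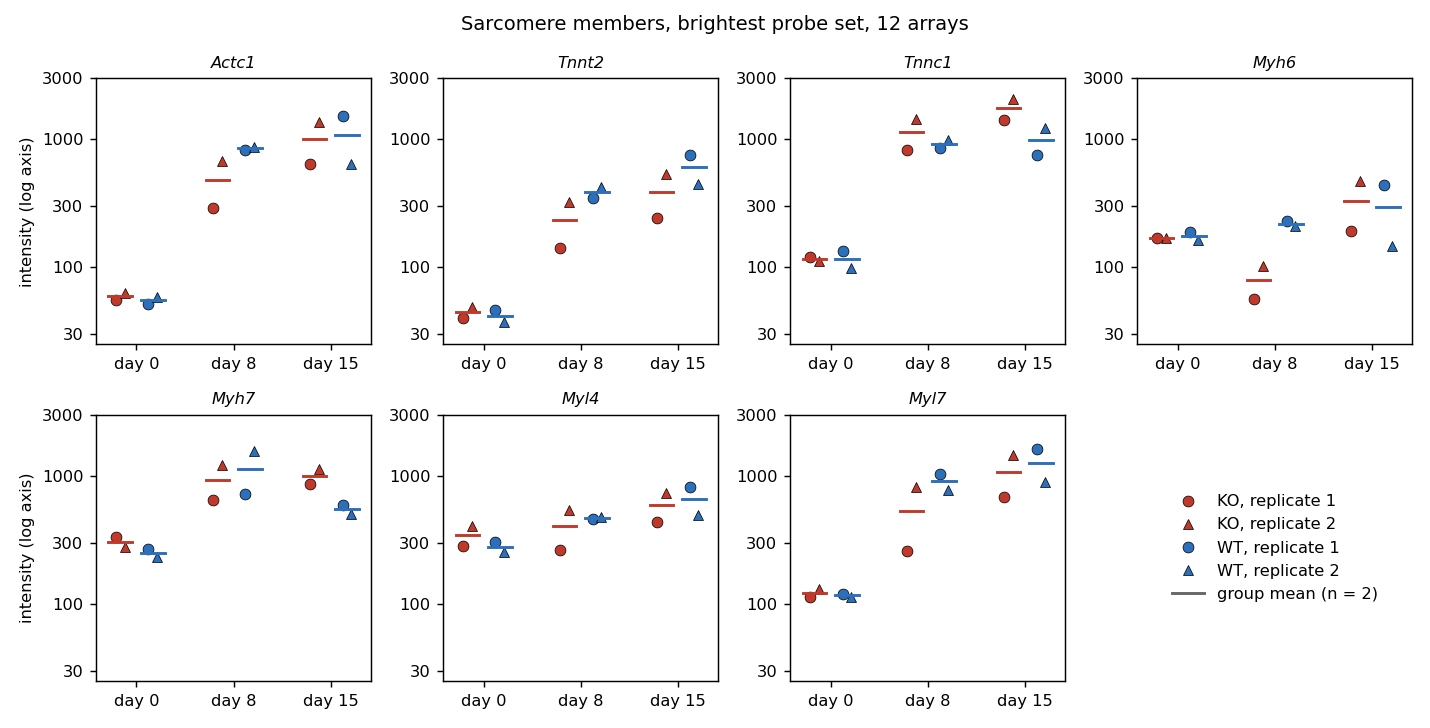
Intensity (log axis) of the brightest probe set of the 7 sarcomere genes on each of the 12 arrays, with KO left of WT on each day, circles for replicate 1, triangles for replicate 2 and lines for group means (n = 2). The day 0 values are on another scale; at day 15 the genotypes overlap for Actc1, Tnnt2, Myh6, Myl4 and Myl7, and both KO arrays read above both WT arrays for Myh7 and Tnnc1.

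Mef2c was lower in KO than in WT cells at day 15 on 3 of its 5 probe sets, the only calls among the 19 probe sets between the genotypes. Probe set 1424852_at, the brightest, read 81.7 and 145 on the KO arrays, against 379 and 214 on the WT arrays. Both KO arrays lay under both WT arrays, and Mef2c fell by 1.39 on the log2 scale (95% interval -2.18 to -0.60, limma adjusted p = 0.0305). Probe set 1421027_a_at read 75.8 and 102 on the KO arrays, against 507 and 246 on the WT arrays, a difference of -2.01 (95% interval -2.94 to -1.08, limma adjusted p = 0.013). Probe set 1451506_at read 58.6 and 80.6 on the KO arrays, against 198 and 106 on the WT arrays, a difference of -1.07 (95% interval -1.67 to -0.48, limma adjusted p = 0.0247). The WT array of replicate 1 was the highest of the 4 on all 3 probe sets.

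The other 2 Mef2c probe sets, 1421028_a_at and 1451507_at, were dim, with 18.4 to 49.95 on the later arrays. KO arrays read under WT arrays on both at day 15 as well, with differences of -0.41 (95% interval -0.85 to 0.02, limma adjusted p = 0.217) and -0.35 (95% interval -0.79 to 0.09, limma adjusted p = 0.302). Across the 8 later arrays the 4 other probe sets correlated with the brightest at r between 0.82 and 0.96, a description over arrays that share their RNA. The calls rested on single arrays. Without the WT array of replicate 1 the difference of 1421027_a_at was -1.49 (adjusted p = 0.0787), and without the KO array of replicate 1 it was -1.80 (adjusted p = 0.0962), and 0 of the 19 probe sets were called in each case. At day 8 the brightest probe set read 59.05 and 101 on the KO arrays, against 102 and 139 on the WT arrays, a difference of -0.62 (95% interval -1.42 to 0.17, limma adjusted p = 0.479).

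Tbx5 and Nkx2-5 did not pass the test between the genotypes. On their brightest probe sets they lay between percentiles 43.6 and 61.8 of the later arrays. Tbx5 read 49.6 and 41.9 on the KO arrays, against 82.01 and 50.5 on the WT arrays at day 15 on 1425695_at, a difference of -0.50 (95% interval -0.93 to -0.07, limma adjusted p = 0.127). The WT array of replicate 1 stood above the other 3. At day 8 the same probe set read 40.5 and 44.3 on the KO arrays, against 40.5 and 40.3 on the WT arrays, with all 4 arrays within a few units. Nkx2-5 read 70.7 and 88.7 on the KO arrays, against 62.9 and 61.6 on the WT arrays at day 8, a difference of 0.35 (95% interval -0.05 to 0.74, limma adjusted p = 0.432). At day 15 it read 89.3 and 69.4 on the KO arrays, against 78.03 and 57.1 on the WT arrays, and the arrays overlapped.

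**Figure D3:**
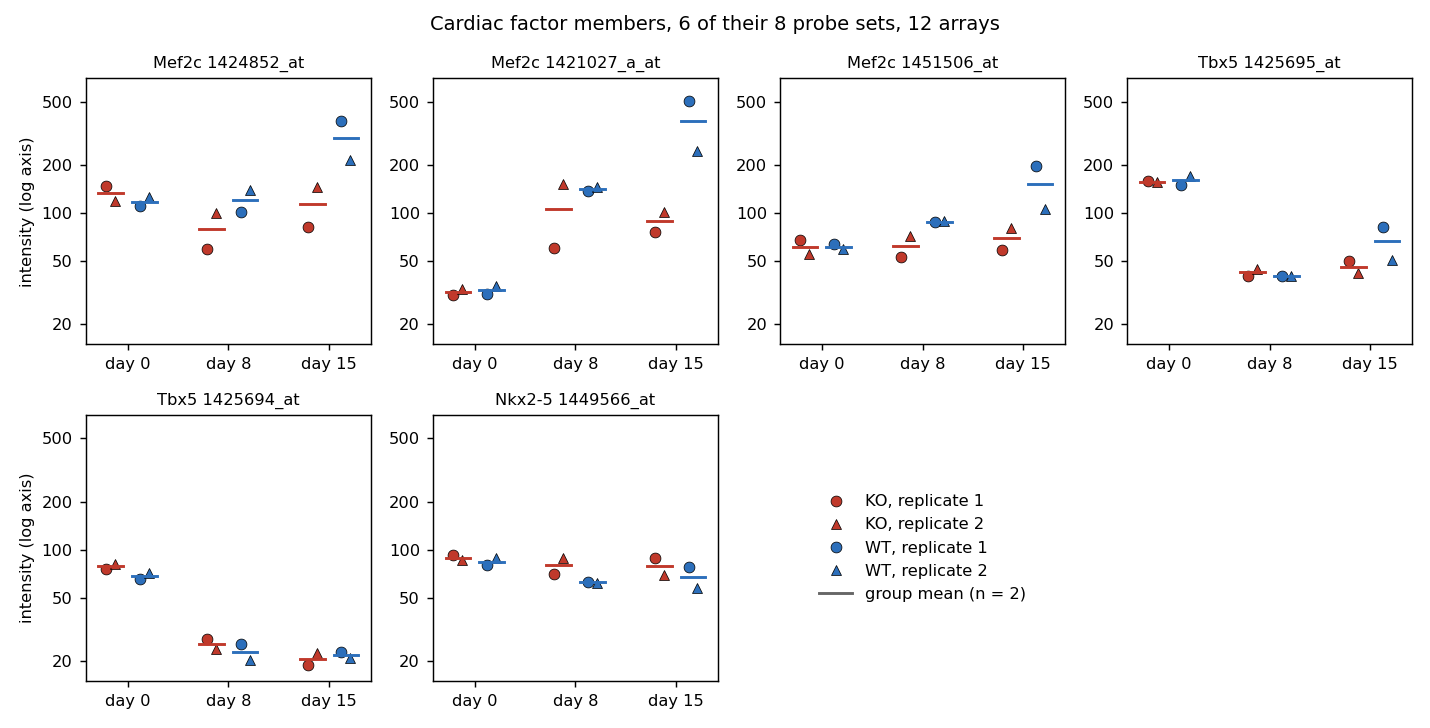
Intensity (log axis) of 6 of the 8 probe sets of Mef2c, Tbx5 and Nkx2-5 on each of the 12 arrays, with KO left of WT on each day, circles for replicate 1, triangles for replicate 2 and lines for group means (n = 2). The day 0 values are on another scale; on the 3 Mef2c probe sets both KO arrays lie under both WT arrays at day 15.

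The remaining 3 probe sets did not pass the test in any comparison. At day 15, Myl4 1457126_at read 67.9 and 71.6 on the KO arrays, against 74.3 and 53.1 on the WT arrays, Tnnt2 1440424_at read 19.3 and 19.7 on the KO arrays, against 25.8 and 20.7 on the WT arrays and Tbx5 1425694_at read 18.9 and 22.4 on the KO arrays, against 22.7 and 20.8 on the WT arrays. KO and WT arrays overlapped on the Myl4 and Tbx5 probe sets, while both KO arrays read under both WT arrays on that of Tnnt2, a difference of -0.25 (95% interval -0.73 to 0.24, limma adjusted p = 0.547).

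Counted over the list, limma called 0 of 19 probe sets at day 8, where 1.13% of all probe sets were called, and 3 of 19 at day 15, all lower in KO, where 12.9% were called. The 3 are 1 gene, so they do not count as 3 independent genes. Unadjusted p-values under 0.05 numbered 1 of 19 at day 8, against 13.9% of all probe sets, and 6 of 19 at day 15, against 26.3% of all. KO and WT arrays did not overlap in 9 of the 19 at day 8, against 43.5% of all probe sets, and in 9 of the 19 at day 15, against 54.2% of all. By the 1.8-fold rule on group means that the study states for its arrays, 2 of 19 passed at day 8, Myh6 1448826_at and Tnnt2 1418726_a_at, both lower in KO, against 2.28% of all. At day 15 the same rule took 4 of 19, Myh7 higher and 3 Mef2c probe sets lower in KO, against 6.28% of all. The median log2 difference over the 19 was -0.26 at day 8 and -0.25 at day 15, against 0.03 and 0.04 over all probe sets.

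**Figure D4:**
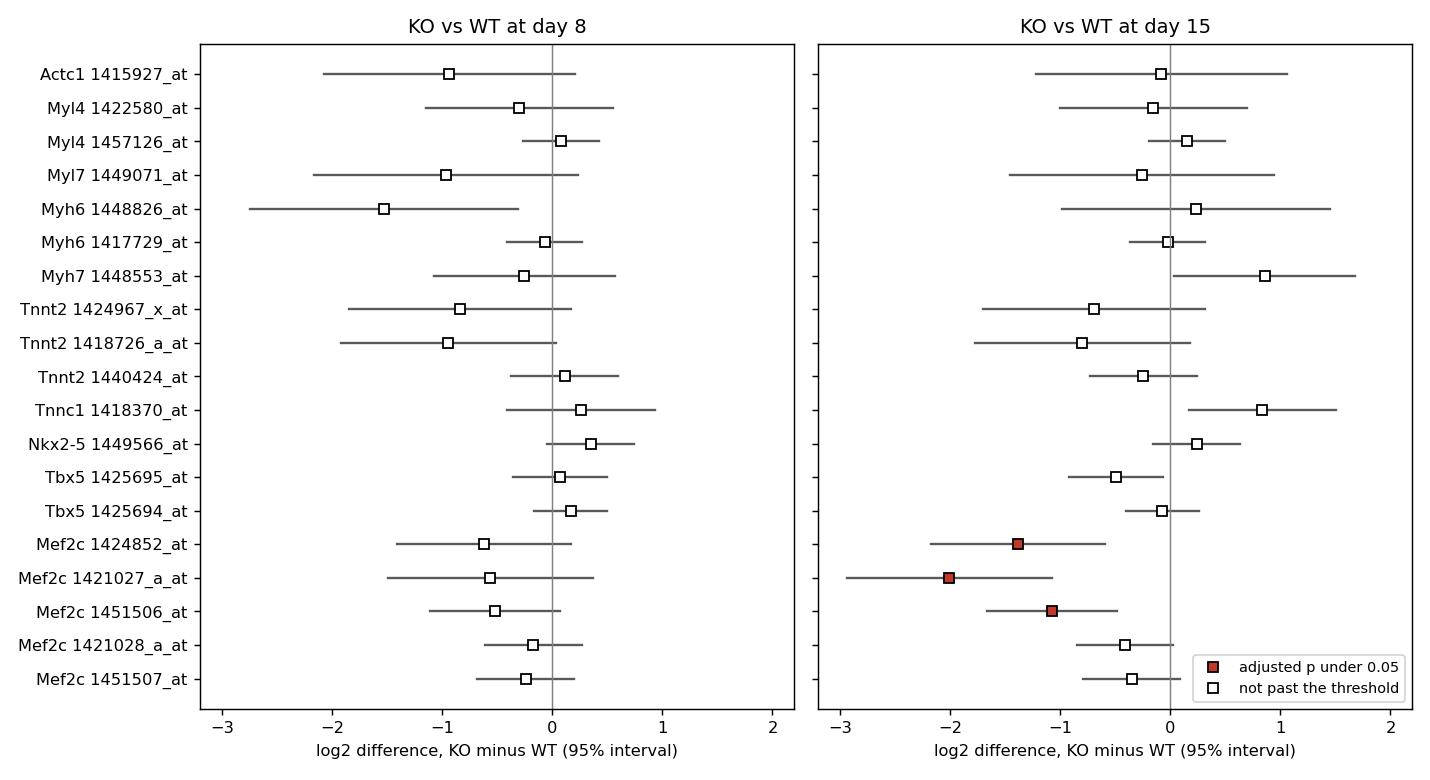
Log2 difference, KO minus WT, with its 95% interval from limma for the 19 probe sets at day 8 (left) and day 15 (right), filled where the adjusted p is under 0.05. The 3 filled squares are Mef2c probe sets at day 15, at -1.39, -2.01 and -1.07.

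From day 8 to day 15, 2 of the 19 probe sets rose in WT cells, where 16.0% of all probe sets were called in either direction. Mef2c 1424852_at read 379 and 214 on the WT arrays of day 15, against 102 and 139 on the WT arrays of day 8, a difference of 1.26 (95% interval 0.47 to 2.05, limma adjusted p = 0.0378). Tbx5 1425695_at read 82.01 and 50.5 at day 15, against 40.5 and 40.3 at day 8, a difference of 0.67 (95% interval 0.24 to 1.10, limma adjusted p = 0.0378). Both WT arrays of day 15 lay above both of day 8 in each gene. Without the WT array of replicate 1 at day 15, 0 of the 19 were called, and without that of replicate 2, 6 were. Myh7 ran the other way, with 599.6 and 504 at day 15, against 726 and 1564 at day 8, a difference of -0.96 (95% interval -1.78 to -0.13, limma adjusted p = 0.117).

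In KO cells 0 of the 19 were called between day 15 and day 8, where 0.0200% of all probe sets were called, and 1 had an unadjusted p under 0.05, against 10.8% of all. That one was Myh6, which read 191 and 469 on the KO arrays of day 15, against 56.1 and 102 on those of day 8. Both arrays of day 15 lay above both of day 8, and the difference was 1.98 (95% interval 0.76 to 3.20, limma adjusted p = 0.266). Actc1 and Myl7 had differences of 1.07 (95% interval -0.06 to 2.21, limma adjusted p = 0.49) and 1.13 (95% interval -0.07 to 2.34, limma adjusted p = 0.49), and their arrays of the 2 days overlapped. The change from day 8 to day 15 was not called as different between KO and WT in any of the 19, where 0.422% of all probe sets were called, and 2 of the 19 had an unadjusted p under 0.05, a share near the 12.0% of all probe sets. These were Myh6, with a difference between the changes of 1.76 (95% interval 0.04 to 3.48, limma adjusted p = 0.401), and Mef2c 1421027_a_at, with -1.45 (95% interval -2.77 to -0.13, limma adjusted p = 0.366). The comparisons at one day and between days share arrays, so their values are not independent.

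The gap between replicates had a larger median over the sarcomere genes than over all probe sets in each of the 6 groups. The excess was largest in the KO groups of days 8 and 15 and in the WT group of day 15. At day 0 the median gap was 1.15-fold in KO and 1.16-fold in WT cells, against 1.10-fold and 1.08-fold over all probe sets. On the KO arrays of day 8, all 7 genes read higher in replicate 2 than in replicate 1, by 1.73-fold to 3.16-fold with a median of 2.08-fold. The median gap over all probe sets there was 1.09-fold. On the KO arrays of day 15 all 7 again read higher in replicate 2, by 1.32-fold to 2.46-fold with a median of 2.12-fold, against 1.11-fold over all probe sets. On the WT arrays of day 15, 6 of the 7 read higher in replicate 1, Tnnc1 being the exception, and the gap had a median of 1.69-fold and reached 3.00-fold in Myh6, against 1.12-fold over all probe sets. On the WT arrays of day 8 the median gap was 1.15-fold, close to the 1.14-fold over all probe sets, but Myh7 differed by 2.15-fold. Over probe sets brighter than the median, which are nearer to these genes in level, the gap there was 1.18-fold, above that of the sarcomere genes. In the other groups it was 1.06-fold to 1.13-fold, under that of the sarcomere genes.

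**Figure D5:**
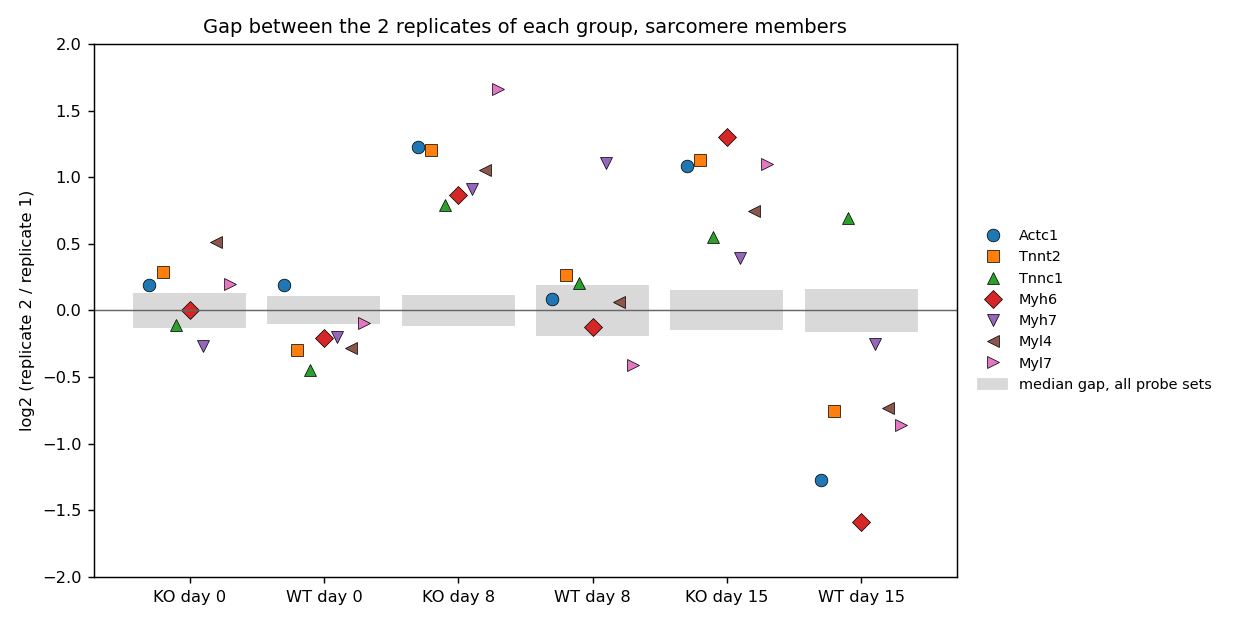
Log2 ratio of replicate 2 to replicate 1 for the brightest probe set of the 7 sarcomere genes in each of the 6 groups, with the median absolute gap of all probe sets as a grey band on both sides of 0. All 7 genes lie above 0 in the KO groups of days 8 and 15, and 6 of 7 lie under 0 in the WT group of day 15.

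Actc1, Myl4, Myl7, Myh6 and Tnnt2 varied together over the 8 arrays of days 8 and 15, and Myh7 and Tnnc1 followed them less closely. The correlation of each gene's log2 intensity with the mean of the other 6 sarcomere genes was 0.94 for Actc1, 0.92 for Myl4, 0.90 for Myl7, 0.85 for Myh6 and 0.82 for Tnnt2. It was 0.29 for Tnnc1 and 0.20 for Myh7. The correlation with the mean of all 7 was 0.65 for Mef2c, 0.32 for Tbx5 and 0.05 for Nkx2-5. These describe 8 arrays of 4 groups, which include differences between days and genotypes as well as between replicates. Of the 11508 other genes with a brightest probe set above the median, the 10 most like the mean of the 7 had r between 0.85 and 0.93. Myom1, a protein of the sarcomere's M-band, had 0.90, Eno3, the muscle form of enolase, had 0.87, and Myl2, the ventricular regulatory light chain, had 0.85. The other 7 were 4833420G17Rik, Trim32, Kif17, Gramd1a, Ager, Zbtb24 and Golga1.

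Myl2 was one of the defining genes named whatever their values, and also one of the most alike genes above. It read 67.3 and 95.9 on the KO arrays of day 8, against 229 and 186 on the WT arrays. At day 15 it read 190.5 and 719.6 on the KO arrays, against 542 and 117 on the WT arrays, with 1 high array in each genotype. Among other genes of working heart muscle, Tnni3, cardiac troponin I, read 23.8 to 49.9 on the later arrays and Pln, which restrains the calcium pump, read 24.96 to 67.5. Ryr2, the calcium release channel, read 27.99 to 54.02 and was higher in WT cells at day 15 than at day 8, with a log2 difference of 0.71 (adjusted p = 0.026), a call lost without any 1 of the 4 WT arrays of these days. Nppa, an atrial peptide hormone, read 71.1 and 147 on the KO arrays of day 15, against 66.6 and 42.04 on the WT arrays.

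Among 19 other measured sarcomere genes, 1 was higher and 1 lower in KO than in WT cells at day 15, with a median log2 difference of -0.02. Tnni1, the slow skeletal troponin I that embryonic heart also uses, averaged 544 ± 226 in KO and 2027 ± 1150.0 in WT cells, a log2 difference of -1.83 (adjusted p = 0.0454). Myom2, another M-band protein, averaged 24.01 ± 0.66 in KO and 13.2 ± 0.59 in WT cells, a log2 difference of 0.86 (adjusted p = 0.0133), at dim levels. At day 8, 0 of the 19 were called. These 2 of 19 stand beside 12.9% of all probe sets. The Tnni1 call was lost without either replicate 1 array of day 15, without any 1 of the day 0 arrays, with the replicate number as a block, with an offset of 32, with quantile normalization over 12 arrays and with only the arrays compared or only those of days 8 and 15. The Myom2 call was lost without any 1 of the 4 day 15 arrays.

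Among 14 measured genes of calcium handling and excitation, 2 were higher in KO at day 15 and 0 lower, a share near the 12.9% of all probe sets. Kcnj5, a potassium channel subunit, averaged 75.1 ± 30.5 in KO and 28.2 ± 3.47 in WT cells, a log2 difference of 1.36 (adjusted p = 0.0068). It was also the only 1 of the 14 called at day 8, where 1.13% of all probe sets were called. There it averaged 83.9 ± 17.5 in KO and 31.6 ± 6.69 in WT cells, a log2 difference of 1.41 (limma adjusted p = 0.0322). That day 8 call was lost with an offset of 32 and with only the arrays of days 8 and 15. Gja1, the gap junction protein connexin 43, which many cell types use, averaged 7087 ± 808 in KO and 4736 ± 498 in WT cells, a log2 difference of 0.58 (adjusted p = 0.00743). Of 10 genes of natriuretic peptides and cardiomyocyte metabolism, 1 was lower in KO at day 15. This was Hspb7, a small heat shock protein of heart and muscle, which averaged 84.1 ± 18.4 in KO and 239 ± 113 in WT cells, a log2 difference of -1.44 (adjusted p = 0.0101). The Gja1 call was lost without either replicate 1 array of day 15, and the Hspb7 call without the KO array of replicate 1. The SDs in these sentences are over 2 arrays.

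Among 18 measured cardiac transcription factor genes outside the 10, KO cells of day 15 were lower than WT cells in 7 and higher in 1, where 12.9% of all probe sets were called in either direction. Their median log2 difference was -0.42, against 0.04 over all probe sets. Hand2, a factor of the right ventricle and of limb and neural crest, averaged 456 ± 200.2 in KO and 2243 ± 725 in WT cells, a log2 difference of -2.33 (adjusted p = 0.0067). Gata6, a factor of heart and endoderm, averaged 502 ± 109 in KO and 2169 ± 598 in WT cells, a log2 difference of -2.10 (adjusted p = 0.00231). Tbx20, a T-box factor of the heart tube, averaged 192 ± 36.8 in KO and 627 ± 59.7 in WT cells, a log2 difference of -1.72 (adjusted p = 0.00561). Foxh1, a partner of Smad proteins in early mesoderm and endoderm, averaged 491 ± 70.3 in KO and 110.3 ± 5.0 in WT cells, a log2 difference of 2.15 (adjusted p = 0.00562). Gata4, which is also an endoderm factor, was lower too, with 353 and 318 on the KO arrays, against 473 and 559 on the WT arrays. Without the KO array of replicate 1, 4 of the 18 were lower and 0 higher, the calls of Hand2, Tbx20 and Foxh1 being lost, and the Gata4 call was lost without that of replicate 2. In WT cells 8 of the 18 were higher and 2 lower at day 15 than at day 8, where 16.0% of all probe sets were called in either direction. The 8 became 3 without the WT array of replicate 1 at day 8, 4 without that of replicate 1 at day 15, 3 with only the arrays of days 8 and 15 and 0 with only the arrays compared, where 0 were lower too. Mesp1, a factor of the earliest heart mesoderm, averaged 42.3 ± 0.32 at day 15 and 296 ± 252 at day 8, a difference of -2.49 (adjusted p = 0.00916). In KO cells 0 of the 18 were called between the days.

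At day 8, 2 of these 18 factors were lower and 1 higher in KO cells, where 1.13% of all probe sets were called in either direction. Tbx20 read 145 and 175 on the KO arrays, against 373 and 715 on the WT arrays. Tbx2, a repressor of the chamber program, averaged 32.5 ± 0.26 in KO and 80.02 ± 21.2 in WT cells, a log2 difference of -1.28 (adjusted p = 0.0138). Tbx1, a factor of the pharynx and outflow tract, averaged 38.6 ± 0.26 in KO and 19.5 ± 4.55 in WT cells, a log2 difference of 1.00 (adjusted p = 0.0209). Without either KO array of day 8, 0 of the 18 were called, and without the WT array of replicate 1, 7 were lower and 2 higher. Isl1, a factor of the second heart field, read 116 and 151 on the KO arrays of day 15, against 150.1 and 200.3 on the WT arrays. Hand1 read 185 and 149.9 on the KO arrays of day 15, against 367 and 242 on the WT arrays.

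The counts of called markers of other cell types at day 15 stand beside 12.9% of all probe sets, called in either direction. Of 10 endothelial genes, 7 were lower in KO cells, and their summed intensity was 2198 to 2383 on the KO arrays and 2780.3 to 3139 on the WT arrays. Kdr, a receptor for vascular growth factor on vessels and their precursors, averaged 132 ± 22.7 in KO and 719 ± 366 in WT cells, a log2 difference of -2.35 (adjusted p = 0.00299). Without the KO array of replicate 1, 4 of the 10 were lower. Of 15 fibroblast and matrix genes, 10 were lower in KO, with sums of 19232 to 25285 on the KO arrays and 73895 to 98933 on the WT arrays. Without any 1 KO array of day 8 or 15, or without the WT array of replicate 1 at day 15, 6 of the 15 were lower. Of 11 genes of pluripotent cells, 10 were higher in KO, with sums of 18815 to 20061 on the KO arrays and 2632 to 7982 on the WT arrays. Pou5f1, the pluripotency factor Oct4, read 2259 and 1909 on the KO arrays, against 108 and 281 on the WT arrays. Of 11 endoderm genes, 4 were lower in KO, with sums of 10775 to 13418 on the KO arrays and 25120.4 to 47440.1 on the WT arrays. Without the KO array of replicate 2, 1 of the 11 was lower, and 2 were without the KO array of replicate 1 or the WT array of replicate 2. Of 10 genes of neurons, 2 were higher in KO and 0 lower, with sums of 3370 to 4025 on the KO arrays and 709 to 1216 on the WT arrays. Stmn2, a neuronal microtubule protein, averaged 2209.8 ± 367 in KO and 175 ± 84.9 in WT cells, a log2 difference of 3.74 (adjusted p = 0.000566). The other was Tubb3, whose call was lost without any 1 of the 4 day 15 arrays. Of 10 smooth muscle genes, 1 was higher and 2 were lower in KO, with sums of 13627.5 to 16125 on the KO arrays and 14665 to 15367 on the WT arrays. Beside the share of all probe sets, the small counts for neurons and smooth muscle are not read as a shift of those lists. Since Mef2c is also used by vessels and nerve cells, and Gata4 and Gata6 also by endoderm, these values stand beside the lower factor genes, and their part in them was not tested.

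Skeletal muscle shares several sarcomere transcripts with the heart. Of 19 skeletal muscle genes, 4 were higher in KO at day 15, where 12.9% of all probe sets were called in either direction. The summed intensity of the 19 was 1994 to 2076 on the KO arrays and 943 to 1004 on the WT arrays. Acta1, skeletal actin, averaged 853 ± 40.9 in KO and 169 ± 49.2 in WT cells, a log2 difference of 2.37 (adjusted p = 0.00222). Tnnt1, slow skeletal troponin T, averaged 340.4 ± 5.88 in KO and 100.3 ± 15.4 in WT cells, a log2 difference of 1.77 (adjusted p = 0.00615), and Mylpf, a fast skeletal light chain, averaged 305 ± 16.5 in KO and 121 ± 37.6 in WT cells, a log2 difference of 1.37 (adjusted p = 0.00203). The fourth was Pax3, a factor of muscle and neural crest precursors. The defining factors Myod1 and Myog read 17.5 to 24.01 and 26.4 to 39.6 on the later arrays, under the array medians, and up to 8 of the 19 genes lay under the lower quartile of a later array. These genes stand beside the higher Myh7 and Tnnc1 values of the KO arrays of day 15, since slow skeletal muscle uses both, and their part was not tested. At day 8 the sum of the 19 was already 1902 to 2283 on the KO arrays, against 1421 to 1554 on the WT arrays. There 1 of the 19 was called, Tnnc2, higher in KO, where 1.13% of all probe sets were called. Myh7 and Tnnc1 then differed by -0.26 and 0.26 on the log2 scale, and their KO and WT arrays overlapped. Without the KO array of replicate 1, 2 of the 19 were higher in KO.

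On the KO arrays of days 8 and 15 the gap between the replicates was larger for the members than for the lists of other cell types set beside them. On the KO arrays of day 0 it was 1.04-fold for the members, against 1.42-fold for the fibroblast and 1.43-fold for the smooth muscle genes. On the KO arrays of day 8, the summed intensity of the 10 members differed 2.02-fold between replicates, against 1.02-fold for the fibroblast, 1.08-fold for the pluripotent, 1.04-fold for the endoderm, 1.18-fold for the smooth muscle and 1.20-fold for the skeletal muscle genes. On the KO arrays of day 15 it differed 1.71-fold for the members, against 1.31-fold for the fibroblast, 1.07-fold for the pluripotent and 1.25-fold for the endoderm genes. In summed intensity the other cardiac lists had smaller gaps than the members on these KO arrays too. At days 8 and 15 these were 1.26-fold and 1.28-fold for the other sarcomere genes, and 1.07-fold and 1.16-fold for the other cardiac factors. They were 1.08-fold and 1.06-fold for calcium handling, and 1.00-fold on both days for natriuretic peptides and metabolism. A sum can be set by the brightest genes of a list. Gja1 averaged 7087 in KO cells of day 15, where the calcium handling sums were 10438 and 11052. Gene by gene, 16 of the 19 other sarcomere genes read higher in replicate 2 on both days. So did 11 and 10 of the 14 calcium handling genes, and 7 of the 10 natriuretic and metabolism genes on both days. Of the 18 other cardiac factors, 9 and 12 did. The median log2 ratio over all probe sets was -0.002 at day 8 and 0.009 at day 15. On the WT arrays of day 15, where the members differed 1.51-fold, other lists differed too. The sums differed 3.03-fold for the pluripotent, 2.63-fold for the natriuretic and metabolism and 1.89-fold for the endoderm genes, all higher in replicate 2. The other sarcomere genes differed 1.37-fold, the other cardiac factors 1.25-fold and the calcium handling genes 1.14-fold. Pou5f1 and Afp, a marker of visceral endoderm and fetal liver, were both higher on that array, with Afp at 5136 and 8795 for replicates 1 and 2. The WT arrays of day 8 differed 1.19-fold for the members, against 2.69-fold for the fibroblast and 2.27-fold for the endoderm genes, with Col1a1, a fibroblast collagen, at 568 and 2376. There the natriuretic and metabolism genes differed 1.91-fold and the other sarcomere genes 1.52-fold, more than the members. The other cardiac factors differed 1.08-fold and the calcium handling genes 1.07-fold. Acta2, the smooth muscle actin, read 7027 to 13620.3 on the later arrays.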

How the data were processed

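Total RNA of 12 samples was measured on Affymetrix mouse expression arrays. The authors deposited 1 linear intensity per probe set and array; the submitters' processing notes name MAS5 and the methods CapitalBio software. Neither a scaling target nor a version is given in the sources used here. Day 0 arrays had other medians and decimals than the later arrays. All 12 columns matched a sample by accession.

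From the intensity values, 64 manufacturer controls were left out, values under 1 were set to 1 and log2 was taken. The 6 group means were fitted with limma 3.58.1 in R 4.3.3 (eBayes with trend and robust, statmod 1.5.0), with Benjamini-Hochberg adjustment over 45037 probe sets, a threshold of 0.05, two-sided. Of these, 34945 had 1 gene symbol, 932 several and 9160 none. Percentiles, counts and figures were made in Python 3.11.15 (pandas 2.3.3, matplotlib 3.10.9). The fit was tested on simulated data. Array number limits precision.

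All 19 probe sets of the members are described. A gene is read from its probe set with the highest mean intensity. From the other gene lists, up to 4 called genes with the largest difference per comparison and a few defining genes were named. The members, lists and tests were chosen with earlier results of these data known. The samples' labels also carry sample numbers that differ from the replicate numbers of the titles, which are used here. Alternatives were other scalings, filters, arrays and thresholds, the replicate number as a block, each array left out and the t-test the methods name.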

Additional observations from a re-analysis of the deposited data

Results flagged for a closer look

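Tbx5 probe set 1425695_at was singled out because both KO arrays lay above both WT arrays at day 8 and under them at day 15, and the difference, KO minus WT, changed by -0.57 on the log2 scale between the days. The readings were 40.5 and 44.3 on the KO arrays, against 40.5 and 40.3 on the WT arrays at day 8, and 49.6 and 41.9 on the KO arrays, against 82.01 and 50.5 on the WT arrays at day 15. The test of the change itself did not pass (limma adjusted p = 0.452), and at day 8 the nearest KO and WT arrays read the same to 1 decimal. Without the WT array of replicate 2 at day 15 the change was -0.92 (adjusted p = 0.0481).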

How the results depend on the processing

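Of 747 recomputed values of 33 single log2 differences, 683 kept their direction and their side of the threshold, 41 lost the call, 11 gained one and 12 turned sign. With 3 member probe sets called between KO and WT at day 15, the count was 1 with only the arrays of days 8 and 15 in the fit, 0 with the methods' t-test, 0 at a threshold of 0.01, and 0 to 6 with each array left out in turn. It was 0 without KO replicate 1 or WT replicate 1 and 6 without WT replicate 2. With 2 called in WT cells between day 15 and day 8, the count was 1 with an offset of 32 and with quantile normalization over 12 arrays, 0 with only the arrays compared, with only the arrays of days 8 and 15, with the methods' t-test and at a threshold of 0.01, and 0 to 6 with each array left out, also 0 without any 1 day 0 array. The change between days differed between the genotypes in 0 member probe sets, and in 0 to 1 with each array left out. The 1.8-fold rule took 2 at day 8, against 6 by 1.5-fold, 1 by 2-fold and 1 with an offset of 32 on the group means, and 4 at day 15, against 7 by 1.5-fold. With each array left out, the log2 difference, KO minus WT, ranged from -0.83 to 0.23 for Myl4, -0.14 to 0.65 for Tnnc1 and -0.81 to 0.30 for Myh7 at day 8, and at day 15 from -0.72 to 0.55 for Actc1, -0.80 to 0.29 for Myl7, -0.56 to 1.03 for Myh6 and -0.53 to 0.22 for Myl4, so their sign rests on single arrays; the cause was not tested. The methods' t-test, with 2 arrays a group, called 0 of all probe sets at days 8 and 15, where 3864 and 6541 had an unadjusted p under 0.05. Over all probe sets, limma's calls at day 8 numbered 508, and 0 with only the 4 arrays compared, where 4702 had an unadjusted p under 0.05. Counts of the other gene lists with each array left out were chosen after seeing the data. Over all probe sets, KO and WT samples with the same replicate number did not deviate together (r = 0.01 at day 0, 0.04 at day 8 and -0.06 at day 15). Between days 8 and 15, r was 0.03 in KO and 0.05 in WT cells. A correlation over all probe sets cannot exclude a pairing seen in few genes, and the samples were treated as unpaired. With the replicate number as a block, the calls stayed at 3 at day 15 and 2 in WT cells between the days. Percentiles among probe sets with 1 gene symbol were within the replicate spread for 8 of 10 genes and shifted by at most 5.77 points. A left-out array leaves a group with 1 array, which is assumed to vary like the other groups.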
